A study of Mus musculus with 17 samples.

Results

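The 36 genes described here encode proteins that copy DNA and divide the nucleus. They were picked by gene symbol from a table of 46073 genes, with no filter on level, and all 36 were found in it. G1/S genes, which act before and during DNA synthesis, made up 22 of them, and G2/M genes, which act from the end of synthesis to the end of mitosis, made up 14. The G1/S genes were the helicase subunits Mcm2 to Mcm7, the loaders Cdt1 and Cdc6, Gins1, the polymerase and primase subunits Pola1 and Prim1, Pcna, Lig1, Fen1, the nucleotide enzymes Rrm1, Rrm2 and Tyms, the cyclins Ccnd1, Ccne1 and Ccne2, and the transcription factors E2f1 and E2f8. The G2/M genes were Cdk1 with its cyclins Ccna2, Ccnb1 and Ccnb2, the mitotic kinases Aurka, Aurkb, Plk1 and Bub1, Birc5, Top2a, Mki67, the transcription factor Foxm1, and Cdc20 and Ube2c.

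Most hepatocytes of an adult liver are quiescent, and they can return to the cell cycle after tissue is lost or killed. Cyclin D and cyclin E kinases then release E2F factors from the retinoblastoma proteins, and E2F targets load and start the replication forks. A later wave of genes, bound by the MuvB complex with B-Myb or Foxm1, drives mitosis, and the same complex with the DREAM proteins keeps them silent in resting cells. Acetaminophen (APAP) kills hepatocytes around the central vein, and surviving hepatocytes proliferate afterwards.

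The livers came from male C57BL/6 mice and were sampled 24 h after the drug or saline was given. The series asked about a protective role of Nampt against APAP. Nampt encodes an enzyme that salvages nicotinamide into NAD, and its label was +/+ (WT), +/- (Het) or OE. The labels give neither the allele behind +/- nor the promoter or cell type behind OE. The 8 livers taken after APAP at 200 mg/kg were 3 WT, 3 Het and 2 OE, and the 7 taken after saline were 3 WT, 2 Het and 2 OE. A further OE mouse had APAP at 300 mg/kg and a further WT mouse had saline labelled IG, each alone in its group. The mice were 11 weeks old except OE APAP 2, the 300 mg/kg mouse and WT saline 1 and 2, which were 12 weeks old. Each library came from 1 mouse, and no label says that the mice of a group were independent. The p-values measure the spread between libraries within groups, estimated over all 8 groups together. In that spread, variation between mice and technical variation cannot be told apart. Replicate numbers follow the order of deposit and are only names. In whole livers, fewer cells expressing a gene and less RNA per cell cannot be told apart.

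Het livers did not have lower Nampt values than WT livers (Het minus WT after APAP 0.16 ± 0.23, limma adjusted p = 0.753). Nampt had 15.4, 11.3 and 15.2 FPKM (sequenced fragments scaled by transcript length and library size) in Het APAP livers, against 12.0, 10.9 and 16.7 FPKM in WT APAP livers, and 26.02 and 23.05 FPKM in Het saline livers, against 17.98, 15.31 and 17.96 FPKM in WT saline livers. It had 36.0 and 18.5 FPKM in OE APAP livers and 22.4 and 27.2 FPKM in OE saline livers. WT, Het and OE therefore stand below for libraries labelled so. Livers sequenced in lanes L007 and L008 had been perfused and those in lanes L004 to L006 had not, so that 0 of 3 WT APAP, 1 of 3 Het APAP, 1 of 2 OE APAP, 2 of 3 WT saline, 2 of 2 Het saline and 1 of 2 OE saline livers were perfused. WT saline shared no lane with any group but the IG library, so its differences from other groups cannot be told apart from lane. Of the hepatocyte markers, Alb was listed at 0 in every library, and the other 6 summed to 7411 to 17077 FPKM per library.

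The promoters are shown first, because cell cycle factors are known to bind short motifs in them and the 2 classes held these motifs in unequal shares. An E2F core was searched as TTNNCGC with C or G at each N, the cell cycle homology region (CHR) of MuvB as TTTGAA, and the NF-Y box as CCAAT, each on both strands in windows from 250 bases before to 50 bases after the RefSeq start (GRCm38.p6). A window was found for 29 of the 36 genes. An E2F core lay in the window of 13 of 18 G1/S genes (72.2%) and 3 of 11 G2/M genes (27.3%), against 10.9% of the 27025 genes with a window. A CHR lay in 3 of 18 G1/S genes (16.7%) and 8 of 11 G2/M genes (72.7%), against 20.2% of all genes. A CCAAT box lay in 11 G1/S genes (61.1%) and 10 G2/M genes (90.9%), against 41.1% of all genes. A match is a description of the letters and not evidence of binding in these livers.

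**Figure D1:**
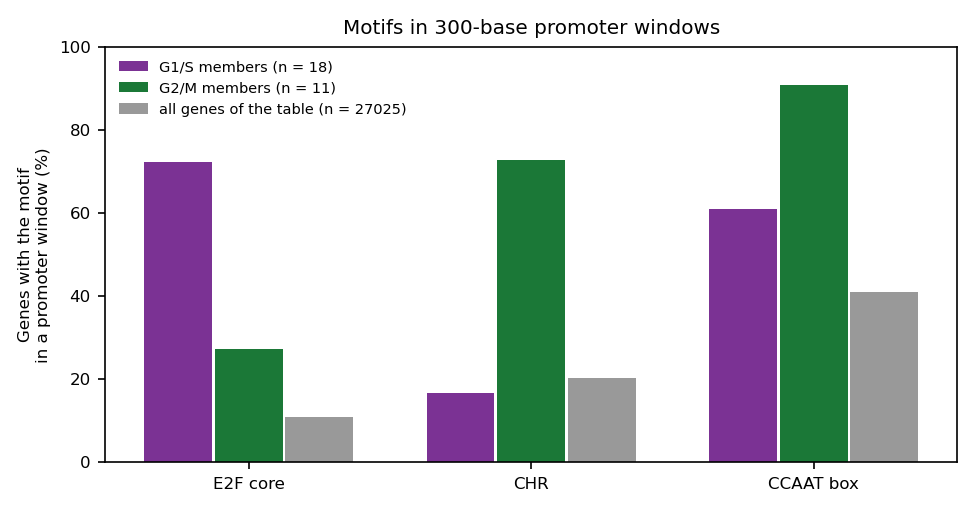
Share of genes (y axis, percent, from 0) whose 300-base promoter window held each motif (x axis), for the G1/S genes (purple), the G2/M genes (green) and all genes with a window (grey). E2F cores were most frequent in the G1/S genes (72.2%), and CHR and CCAAT boxes in the G2/M genes (72.7% and 90.9%).

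The 6 sequences below are the 120 bases before the start of some of the genes named in the results. Mcm2, Ccne1 and E2f8 passed the test after APAP, Mcm6 had the largest averaged change, and Cdk1 and Ube2c are examples of the G2/M genes. Lig1, which also passed and had an E2F core in its window, is not printed. Cdk1 and Ube2c are among the 8 of 11 G2/M genes with a CHR in the window. They are written 5′ to 3′ on the strand of the gene, and capitals mark every E2F core, CHR and CCAAT box on either strand. In Mcm6 the E2F cores of opposite strands overlap each other, and in E2f8 a CCAAT box overlaps an E2F core. Mcm6, chr1:128359706-128359825 (minus strand), Mcm2, chr6:88898781-88898900 (minus), Ccne1, chr7:38107491-38107610 (minus), E2f8, chr7:48881597-48881716 (minus), Cdk1, chr10:69352913-69353032 (minus), and Ube2c, chr2:164769809-164769928 (plus), are RefSeq sequences of GRCm38.p6.
Mcm6: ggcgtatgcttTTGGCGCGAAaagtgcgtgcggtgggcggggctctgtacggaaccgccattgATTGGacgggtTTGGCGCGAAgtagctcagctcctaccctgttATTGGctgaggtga
Mcm2: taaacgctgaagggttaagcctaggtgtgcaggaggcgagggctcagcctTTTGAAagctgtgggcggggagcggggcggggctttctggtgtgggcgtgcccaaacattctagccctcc
Ccne1: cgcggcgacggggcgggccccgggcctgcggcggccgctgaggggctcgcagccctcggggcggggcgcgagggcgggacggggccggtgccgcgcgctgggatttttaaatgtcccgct
E2f8: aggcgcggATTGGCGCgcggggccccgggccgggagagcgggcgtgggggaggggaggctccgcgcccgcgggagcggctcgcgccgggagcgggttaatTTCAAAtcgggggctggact
Cdk1: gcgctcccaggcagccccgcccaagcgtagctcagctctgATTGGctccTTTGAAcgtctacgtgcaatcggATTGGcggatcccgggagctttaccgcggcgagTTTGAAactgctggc
Ube2c: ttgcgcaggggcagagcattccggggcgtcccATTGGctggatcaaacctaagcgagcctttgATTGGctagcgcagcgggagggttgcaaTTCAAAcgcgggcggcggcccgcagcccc
These stretches show E2F cores with CCAAT boxes in Mcm6, and CCAAT boxes with a CHR near the start in Cdk1 and Ube2c. E2f8, a G1/S gene, held an E2F core, a CCAAT box and also a CHR near the start. Its CHR lay at -20 from the start, against -15 and -29 for the nearest CHR in Cdk1 and Ube2c. Mcm2 held a CHR and no E2F core here, and Ccne1 held none of the motifs in these 120 bases.

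Most G1/S genes were listed above 1 FPKM on average and most G2/M genes below it. Mean levels over the 17 libraries ran from 0.204 FPKM for Cdc6 to 17.0 FPKM for Pcna, the sliding clamp of DNA polymerases, with a median of 1.62 FPKM over the G1/S genes. They ran from 0.0432 FPKM for Plk1 to 1.40 FPKM for Cdk1, the kinase that starts mitosis, with a median of 0.345 FPKM over the G2/M genes. A mean of at least 1 FPKM was reached by 18 of 22 G1/S genes and by 1 of 14 G2/M genes, Cdk1. Among the G1/S genes Fen1 was listed at 0 in a library, and 8 G2/M genes were (Foxm1, Ccnb1, Ccnb2, Aurkb, Plk1, Bub1, Ube2c and Cdc20). FPKM keeps no count of reads, so the precision of these low values is unknown. Values of 10 genes are uncertain, since they overlap another coding gene (Ccna2, Ccnd1, Ccne2, Cdc20, Cdt1, Fen1, Foxm1, Lig1, Mcm7 and Ube2c) and it is not stated whether counting used the strand. Cdt1 and Foxm1 are overlapped on the same strand, where counting by strand would not separate the genes. The overlapping genes had a mean of at most 5.39 FPKM at Cdt1, 0.0206 FPKM at Foxm1 and 0 FPKM at Ube2c.

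**Figure D2:**
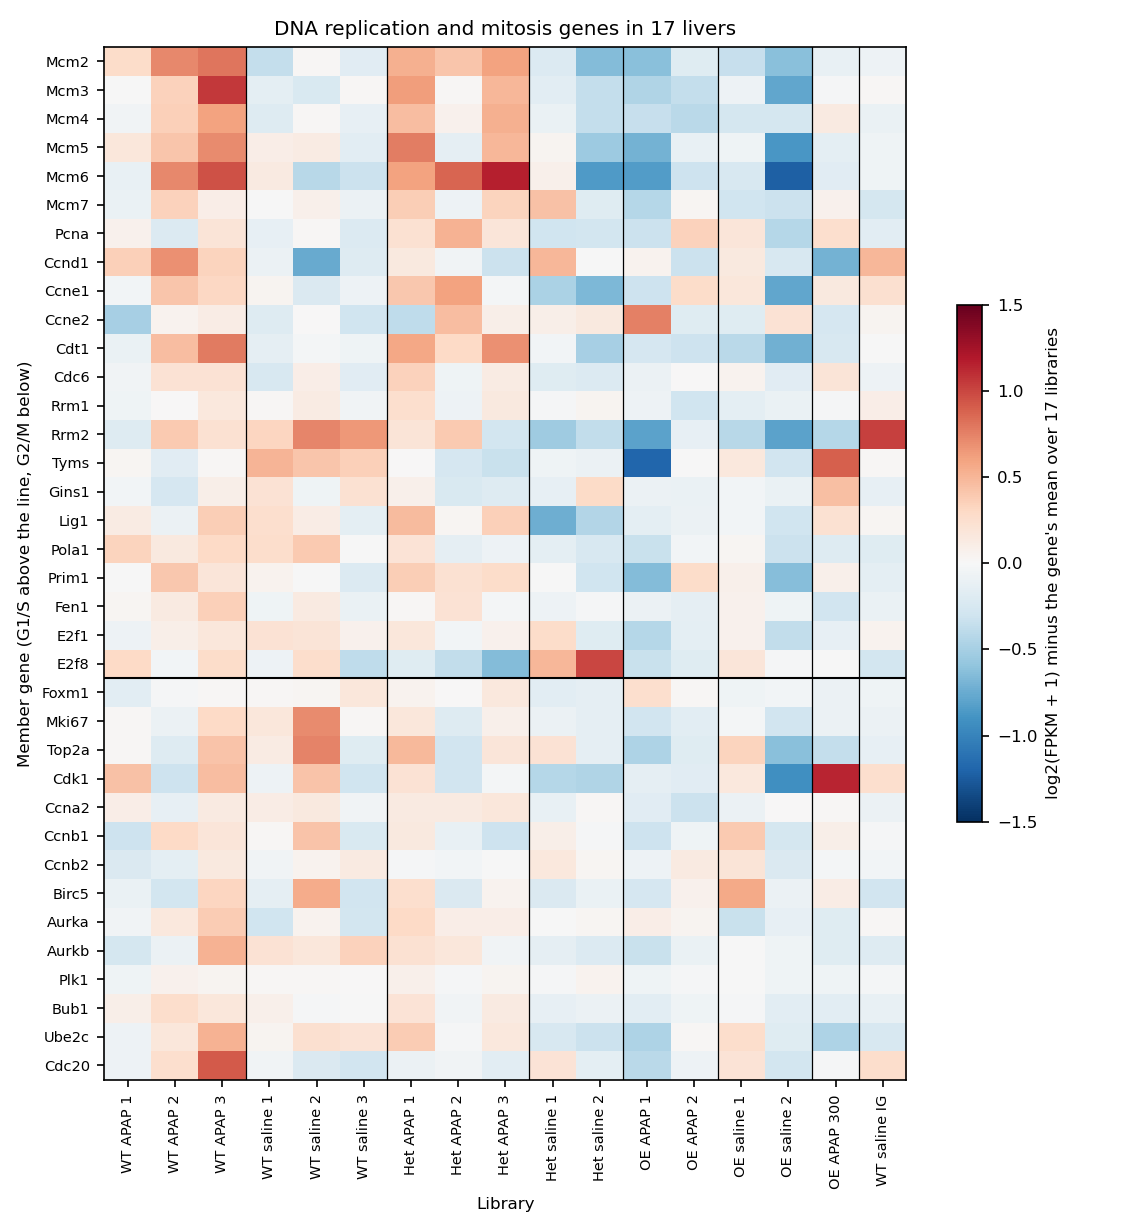
Each row is a gene and each column a liver, and the colour gives log2(FPKM + 1) minus the mean of that gene over the 17 libraries (red above it, blue below it). WT APAP 2 and 3 and the Het APAP livers are red over Mcm2 and Mcm6, OE APAP 1 and OE saline 2 are blue over most genes, and many G2/M rows are pale.

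Averaged over the 3 labels, 3 of the 36 genes were higher after APAP, all of them G1/S, and 0 were lower. They were Mcm2, a subunit of the replicative helicase, Ccne1, the cyclin E that starts S phase with Cdk2, and Lig1, the ligase that joins Okazaki fragments. Each label's APAP minus saline difference, on the log2(FPKM + 1) scale, entered this average with equal weight, adjusted for perfusion and tested with limma over 32197 genes, and this scale understates the change of low genes. Of all genes tested, 2.64% were higher and 3.14% lower at an adjusted p under 0.05. At an unadjusted limma p under 0.05, 15 of the 36 were higher and 1, E2f8, was lower (-0.28 ± 0.12, adjusted p = 0.238), against 11.1% and 8.07% of all genes. In 0 of the 36 did every APAP library lie above every saline library, or below it, against 0.699% and 0.876% of all genes. The median change was 0.24 over the G1/S genes and 0.10 over the G2/M genes, against 0.02 over all genes.

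Mcm2 (ENSMUSG00000002870, chromosome 6, 88883474 to 88898780, minus strand of GRCm38) had 1.88, 2.92 and 3.16 FPKM in WT APAP livers, against 0.868, 1.40 and 1.11 FPKM in WT saline livers. It had 2.45, 2.18 and 2.62 FPKM in Het APAP livers, against 1.07 and 0.520 FPKM in Het saline livers. It had 0.541 and 1.10 FPKM in OE APAP livers, against 0.872 and 0.550 FPKM in OE saline livers. Every WT and Het APAP library stood above every saline library of the study, and the OE APAP libraries lay among the saline ones. The averaged change was 0.67 ± 0.13 (SE, 95% interval 0.37 to 0.97, limma adjusted p = 0.019). It did not pass without OE APAP 2 (0.57, adjusted p = 0.142), without Het saline 2 (0.59, adjusted p = 0.051) or without OE saline 2 (0.63, adjusted p = 0.108).

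Ccne1 (ENSMUSG00000002068, chromosome 7, 38097984 to 38107534, minus strand) had 0.977, 1.71 and 1.52 FPKM in WT APAP livers, against 1.10, 0.742 and 0.925 FPKM in WT saline livers. It had 1.68, 2.10 and 0.983 FPKM in Het APAP livers, against 0.463 and 0.272 FPKM in Het saline livers, and 0.638 and 1.45 FPKM in OE APAP livers, against 1.28 and 0.188 FPKM in OE saline livers. The Het groups did not overlap, and the WT and OE groups did. The averaged change was 0.66 ± 0.17 (limma adjusted p = 0.049), and it passed in 4 of the 15 fits that leave out a library. Those fits gave 0.46 (without OE saline 2) to 0.78 (without WT saline 3).

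Lig1 (ENSMUSG00000056394, chromosome 7, 13277283 to 13311433, plus strand) had 1.09, 0.800 and 1.48 FPKM in WT APAP livers, against 1.29, 1.08 and 0.736 FPKM in WT saline livers. It had 1.68, 0.959 and 1.45 FPKM in Het APAP livers, against 0.151 and 0.419 FPKM in Het saline livers, and 0.727 and 0.800 FPKM in OE APAP livers, against 0.869 and 0.563 FPKM in OE saline livers. The Het saline livers held the 2 lowest values of the study, and the WT groups and the OE groups overlapped. The averaged change was 0.43 ± 0.11 (limma adjusted p = 0.041) and passed in 4 of the 15 fits that leave out a library, which gave 0.38 to 0.50. Lig1 overlaps Zswim9 on the opposite strand.

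The next G1/S genes by p were Mcm5, at 0.61 ± 0.16 (limma adjusted p = 0.053), Prim1, the catalytic primase subunit, at 0.46 ± 0.13 (adjusted p = 0.067), and Cdt1, which loads the helicase, at 0.55 ± 0.16 (adjusted p = 0.078). Mcm6 had the largest change of the 36, at 0.83 ± 0.26 (adjusted p = 0.104), and Pcna stood at 0.41 ± 0.13 (adjusted p = 0.105). The G2/M genes with the smallest p were Bub1, a spindle checkpoint kinase, at 0.16 ± 0.05 (adjusted p = 0.091), Aurka, a spindle pole kinase, at 0.28 ± 0.10 (adjusted p = 0.148), and Cdk1, at 0.48 ± 0.18 (adjusted p = 0.179). None of the 14 G2/M genes passed, and 3 of them had an unadjusted limma p under 0.05, against 19.1% of all genes. The number passing depended on which low genes were tested. With a mean of at least 1 FPKM required, 19 of the 36 entered and 7 passed, Mcm2, Mcm5, Mcm6, Ccne1, Cdt1, Prim1 and Pcna, all higher, against 9.67% of the 11126 genes then tested, and with 0.1 FPKM in its place 8 were higher, against 7.75%. The mean was taken over all 17 libraries, so a gene high after APAP could enter through the APAP livers. Cdt1 (mean 1.04 FPKM) reached 1 FPKM only in WT APAP 2 and 3 and the Het APAP livers. Ccne1 (mean 1.10 FPKM) had saline group means of 0.921 (WT), 0.367 (Het) and 0.732 FPKM (OE). Passing under this filter is therefore not separate evidence for such genes. Without OE APAP 1 and OE saline 2, 0 passed.

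Cdk1 (ENSMUSG00000019942, chromosome 10, 69335146 to 69352938, minus strand) showed how the G2/M genes scattered within groups. It had 2.10, 0.842 and 2.14 FPKM in WT APAP livers, against 1.15, 2.08 and 0.852 FPKM in WT saline livers. It had 1.65, 0.873 and 1.23 FPKM in Het APAP livers, against 0.695 and 0.667 FPKM in Het saline livers. It had 1.08 and 1.03 FPKM in OE APAP livers, against 1.54 and 0.203 FPKM in OE saline livers. The Het groups did not overlap, and in WT and OE a saline library lay among or above the APAP ones. The single 300 mg/kg library had 4.05 FPKM, the highest value of Cdk1 in the study.

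The other G1/S genes did not pass the averaged test, and their extremes fell in different libraries. Among the helicase subunits Mcm3 ran from 0.796 FPKM (OE saline 2) to 5.44 FPKM (WT APAP 3), with an averaged change of 0.52 ± 0.20 (limma adjusted p = 0.175), and Mcm4 from 1.04 FPKM (OE APAP 2) to 3.12 FPKM (WT APAP 3). Mcm7, which overlaps other coding genes, ran from 3.33 FPKM (OE APAP 1) to 6.91 FPKM (Het saline 1). The highest value thus lay in an APAP liver for Mcm3 and Mcm4 and in a saline liver for Mcm7. Rrm1, the large subunit of ribonucleotide reductase, lay between 1.93 FPKM (OE APAP 2) and 3.28 FPKM (Het APAP 1), with an averaged change of 0.03 ± 0.08 (adjusted p = 0.893). Rrm2, its cell cycle regulated partner, ran from 0.408 FPKM (OE saline 2) to 4.02 FPKM (WT saline IG). Pola1, the catalytic subunit of polymerase alpha, ran from 1.05 FPKM (OE APAP 1) to 2.41 FPKM (WT saline 2), and its averaged change was 0.21 ± 0.06 (adjusted p = 0.095). The activators E2f1, at 0.112 to 0.808 FPKM, and Ccne2, the second cyclin E, at 0.671 to 2.99 FPKM, had averaged changes of 0.04 ± 0.09 (adjusted p = 0.871) and -0.10 ± 0.17 (adjusted p = 0.777). Cdc6, which loads the helicase with Cdt1, and Fen1, the flap nuclease, stayed under 1 FPKM, at 0.0122 to 0.515 FPKM and 0 to 0.558 FPKM.

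Among the G2/M genes, saline livers held the highest value of several. Mki67, the gene of the Ki-67 proliferation antigen, ran from 0.0732 FPKM (OE APAP 1) to 1.14 FPKM (WT saline 2), with an averaged change of 0.07 ± 0.11 (limma adjusted p = 0.764). Top2a, which untangles replicated DNA, ran from 0.0832 FPKM (OE saline 2) to 1.81 FPKM (WT saline 2). Ccnb1, a mitotic cyclin, was highest in the same library (0.673 FPKM), and Ccnb2 (0.322 FPKM) and Birc5, the survivin gene (1.09 FPKM), were highest in OE saline 1. WT APAP 3 held the highest values of Aurka (1.14 FPKM), Aurkb, the kinase of the chromosomal passenger complex (0.814 FPKM), Ube2c (0.976 FPKM) and Cdc20 (1.52 FPKM), the last 2 encoding an enzyme and an activator of the anaphase-promoting complex pathway. Foxm1 ran from 0 to 0.323 FPKM, with its highest value in OE APAP 1, where 6 of the 14 G2/M genes were listed at 0. Ccna2, cyclin A, was at 0.552 to 1.19 FPKM and its averaged change was -0.02 ± 0.08 (adjusted p = 0.901). Plk1, a mitotic kinase, did not exceed 0.0996 FPKM, and Bub1 did not exceed 0.343 FPKM.

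**Figure D3:**
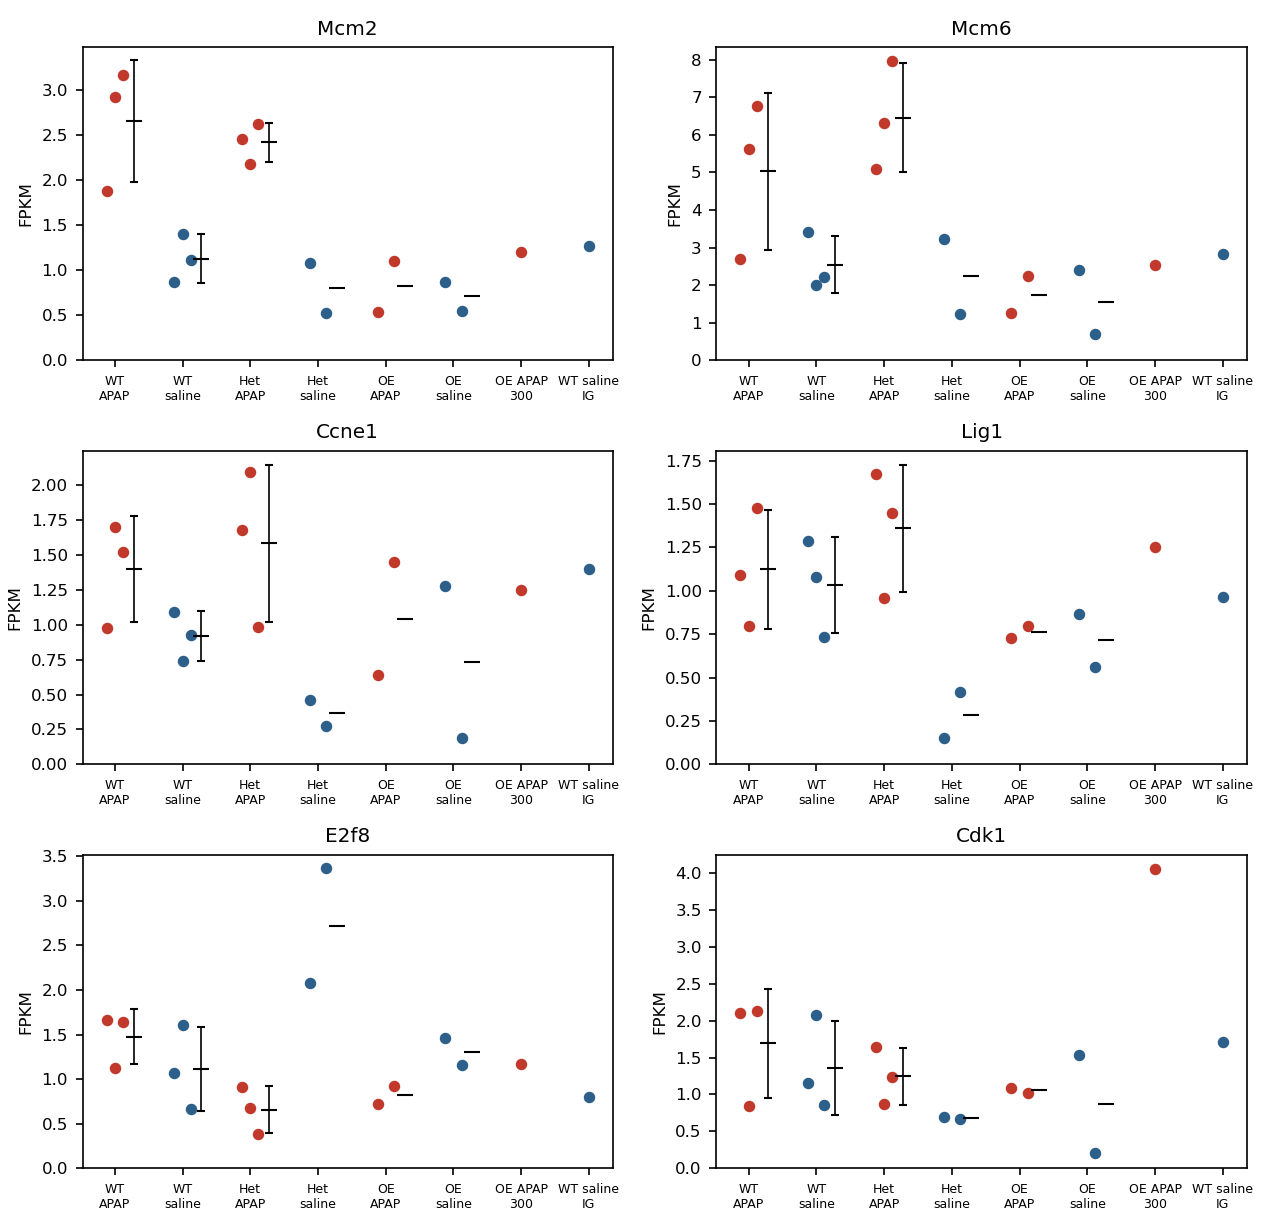
FPKM (y axis, from 0) of 6 genes in every library, by label and treatment (x axis), with APAP in red and saline in blue. Points are livers, the black dash is the group mean and the bars are the SD in groups of 3. WT and Het APAP points of Mcm2 (1.88 to 3.16 FPKM) lie above all saline points, and Het saline points are the lowest for Lig1 (0.151 and 0.419 FPKM) and the highest for E2f8 (2.08 and 3.37 FPKM).

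In WT livers 0 of the 36 genes passed the threshold after APAP, in limma over all genes, of which 0.233% were higher and 0.298% lower. At an unadjusted p under 0.05, 11 were higher and 1 was lower, against 6.66% and 5.83% of all genes. The median change was 0.34 over the G1/S genes and 0.23 over the G2/M genes, against 0.01 over all genes. Mcm2 stood at 0.88 ± 0.21 (95% interval 0.42 to 1.34, adjusted p = 0.091) and passed with a mean of at least 1 FPKM required (adjusted p = 0.034), where it was the 1 gene of the 36 higher, against 1.93% of the genes then tested (1 and 1.31% with 0.1 FPKM in its place). Ccnd1, the cyclin D that answers mitogens, stood at 0.83 ± 0.26 (adjusted p = 0.202) with 10.8, 13.8 and 10.6 FPKM in WT APAP livers, against 7.75, 4.48 and 7.08 FPKM in WT saline livers. The WT groups of Ccnd1 did not overlap, but the WT saline liver labelled IG had 12.1 FPKM and Het saline 1 had 12.1 FPKM, both within the range of the WT APAP livers. In 4 of the 36 genes every WT APAP library lay above every WT saline library, against 10.4% of all genes, and in 1 gene every one lay below, against 8.63%. WT APAP 3 held the highest value of 5 G1/S and 4 G2/M genes among the 17 libraries, Cdc20 at 1.52 FPKM among them. Its monocyte and macrophage markers summed to 325 FPKM, against 339 and 340 FPKM in Het APAP 2 and 3.

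In Het livers 3 genes were higher after APAP, Lig1, Mcm2 and Ccne1, and 1 was lower, E2f8. Of all genes, 2.88% were higher and 2.99% lower in limma at an adjusted p under 0.05. Lig1 changed by 1.04 ± 0.18 (adjusted p = 0.012), Mcm2 by 1.05 ± 0.22 (adjusted p = 0.026) and Ccne1 by 1.14 ± 0.28 (adjusted p = 0.043, passed in 4 of the 15 fits that leave out a library). The median change was 0.53 over the G1/S genes and 0.23 over the G2/M genes, against 0.03 over all genes. Every Het APAP library lay above every Het saline library in 12 G1/S and 7 G2/M genes, or 19 of 36, against 24.4% of all genes, with 3 libraries set against 2. They lay below in 2 genes, against 13.6% of all genes. When a mean of at least 1 FPKM was required, 7 of the 19 genes that entered were higher, against 8.94% of the genes then tested, and with 0.1 FPKM in its place 10 were, against 7.22%. These means included the Het APAP libraries, so a gene could enter through them.

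E2f8 (ENSMUSG00000046179, chromosome 7, 48866429 to 48881596, minus strand) encodes an atypical E2F that represses E2F targets and is known for its part in hepatocyte polyploidy. It overlaps the noncoding gene Gm2788 on the opposite strand, which had a higher mean level (8.51 FPKM). It had 0.916, 0.682 and 0.382 FPKM in Het APAP livers, against 2.08 and 3.37 FPKM in Het saline livers. It had 1.67, 1.12 and 1.65 FPKM in WT APAP livers, against 1.07, 1.61 and 0.669 FPKM in WT saline livers, and 0.724 and 0.925 FPKM in OE APAP livers, against 1.46 and 1.15 FPKM in OE saline livers. Het saline livers were the highest of the study, and Het and OE groups did not overlap while WT groups did. The Het change was -0.95 ± 0.20 (limma adjusted p = 0.026). It passed in 10 of the 15 fits that leave out a library, and stood at -0.70 without Het saline 2 (adjusted p = 0.167). The Het response of E2f8 differed from the WT response by -1.40 ± 0.25 (95% interval -1.95 to -0.85, adjusted p = 0.236), which did not pass.

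Part of the Het response could be read within lane L008, which held Het APAP 1 and both Het saline livers. With lane in place of perfusion, Lig1 changed by 1.07 (adjusted p = 0.030) and passed, and Mcm2 changed by 0.96 (adjusted p = 0.093), Ccne1 by 0.97 (adjusted p = 0.110) and E2f8 by -0.94 (adjusted p = 0.075) without passing. Mcm2 did not pass without Het saline 1 (1.27, adjusted p = 0.071) or Het saline 2 (0.83, adjusted p = 0.170), and Lig1 did not pass without Het saline 1 (0.89, adjusted p = 0.099).

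In OE livers 0 of the 36 genes passed the threshold after APAP in limma, against 0% of all genes higher and 0.00311% lower. At an unadjusted p under 0.05, 1 gene was higher, Foxm1 (0.19 ± 0.08), and 1 was lower, against 2.30% and 1.93% of all genes. The lower one was Tyms, which makes thymidylate, at -0.53 ± 0.22. The median change was 0.04 over the G1/S genes and -0.12 over the G2/M genes, against 0 over all genes. Mcm2 stood at 0.08 ± 0.22 with an interval of -0.42 to 0.57, and Mcm6 at 0.16 ± 0.44 with an interval of -0.81 to 1.14. Both OE APAP libraries lay above both OE saline libraries in 3 genes, against 7.13% of all genes, and below them in 5, against 7.99%. Each OE APAP liver had an OE saline liver in its lane. Mcm2 had 1.10 FPKM in OE APAP 2 and 0.872 FPKM in OE saline 1 in lane L008, and 0.541 FPKM in OE APAP 1 and 0.550 FPKM in OE saline 2 in lane L004. OE APAP 1 and OE saline 2 held low values of most genes, OE APAP 1 the lowest of 5 G1/S and 7 G2/M genes and OE saline 2 the lowest of 7 G1/S and 5 G2/M genes, zeros shared with other libraries included. Ranks are counted from 1 for the lowest of the 17 libraries. The 300 mg/kg liver, also in lane L004, had median ranks of 9 and 6 over the G1/S and G2/M genes. Those of OE APAP 1 were 3 and 2, and those of OE saline 2 were 2.5 and 3.5. The 300 mg/kg liver held the lowest value of 1 G1/S and 3 G2/M genes, shared zeros included.

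**Figure D4:**
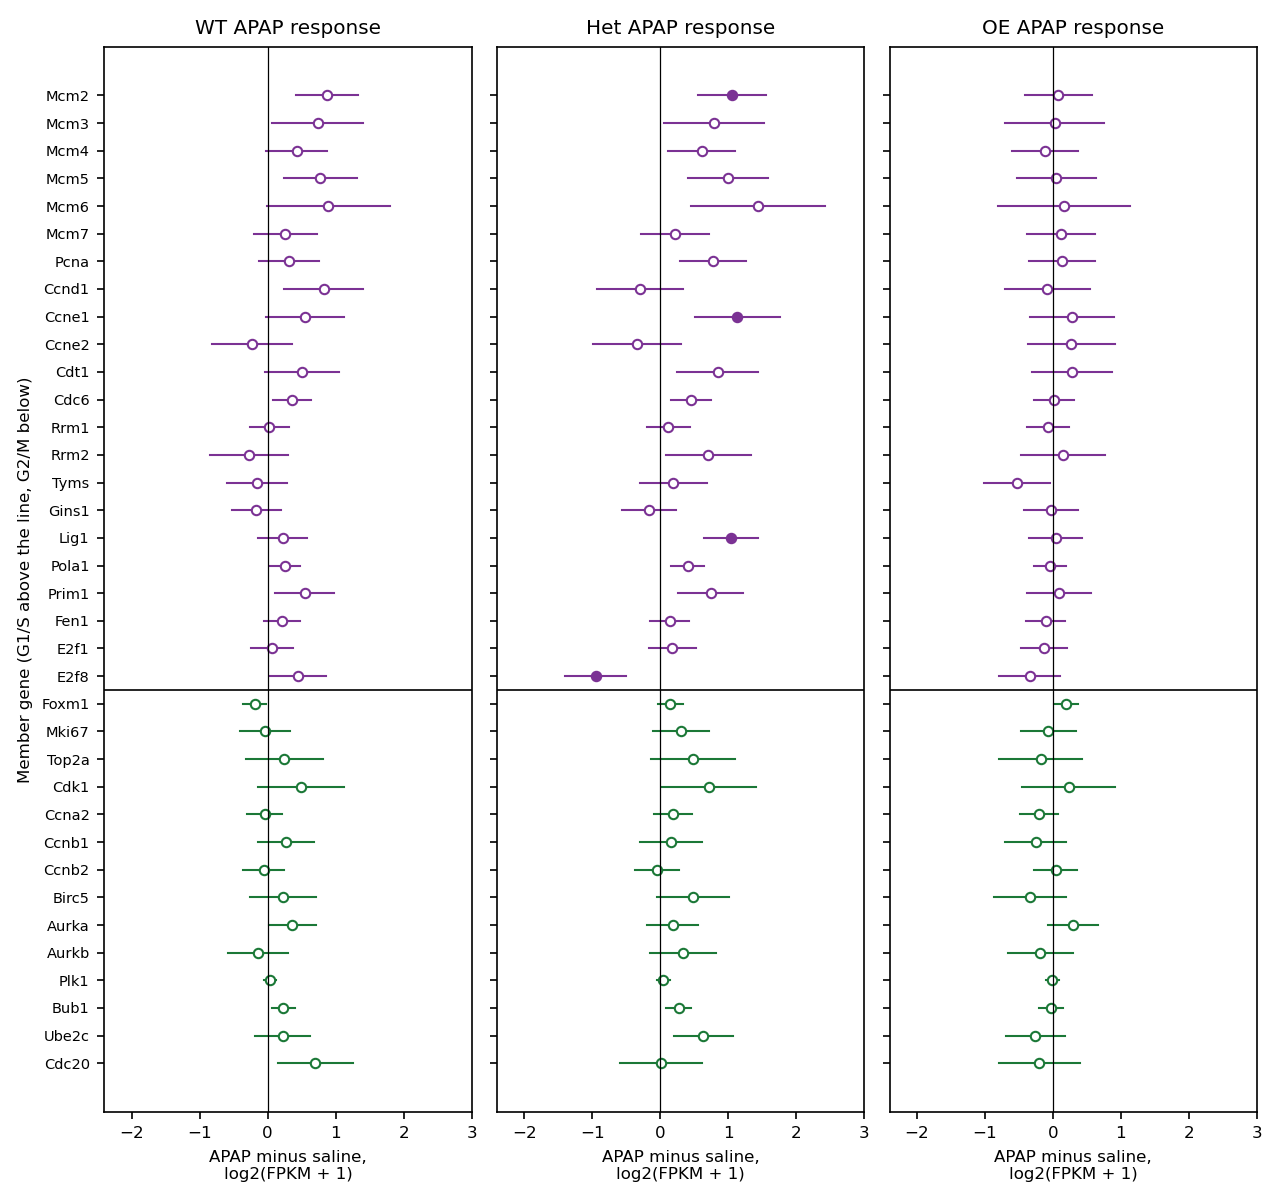
APAP minus saline difference in log2(FPKM + 1) of each gene (x axis) in WT, Het and OE livers, with 95% intervals as lines, G1/S genes in purple above the line and G2/M genes in green below it. Filled points passed an adjusted p of 0.05 in limma. These are Mcm2, Ccne1, Lig1 and E2f8 in Het livers, and the OE differences lie around 0.

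Among the livers given APAP, Mcm2 was the 1 gene of the 36 that passed between labels. It was lower in OE than in Het APAP livers, with a difference of -0.95 ± 0.20 (95% interval -1.41 to -0.50, limma adjusted p = 0.041), where 1.39% of all genes were called higher and 1.42% lower. At an unadjusted p under 0.05, 16 of the 36 were lower and 0 higher in OE than in Het livers, against 13.1% of all genes lower. In the OE minus WT comparison after APAP 0 passed in limma, against 0.00621% of all genes higher and 0.00311% lower. At an unadjusted p 22 were lower, against 5.37% of all genes, and 1 was higher, against 4.88%. The higher one was Foxm1, which drives mitotic genes (0.24 ± 0.08). The median OE minus WT difference was -0.60 over the G1/S genes and -0.33 over the G2/M genes, against -0.01 over all genes. Both comparisons use the same OE libraries. WT APAP livers (lane L005) and OE APAP livers (lanes L004 and L008) shared no lane, so label and lane cannot be told apart in these libraries alone. OE APAP 1 held the lowest value of 5 G1/S and 7 G2/M genes, shared zeros included. Genes that are low together in a library are not separate observations. Mcm2 in the OE minus Het comparison stood at -0.76 without OE APAP 1 (adjusted p = 0.448) and passed in 3 of the 15 fits that leave out a library. With a mean of at least 1 FPKM required, 5 genes passed as lower in OE than in Het livers, against 4.87% of the genes then tested, and with 0.1 FPKM in its place 4 did, against 3.79%.

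The helicase subunit with the largest averaged change, Mcm6, is given in full. Mcm6 (ENSMUSG00000026355, chromosome 1, 128331590 to 128359664, minus strand) had 1.25 and 2.24 FPKM in OE APAP livers, 5.08, 6.32 and 7.97 FPKM in Het APAP livers and 2.71, 5.62 and 6.75 FPKM in WT APAP livers. It had 2.40 and 0.710 FPKM in OE saline livers, 3.24 and 1.22 FPKM in Het saline livers and 3.41, 2.01 and 2.21 FPKM in WT saline livers. The OE values after APAP lay under all Het and WT values after APAP, and within the range of the saline livers. Its OE minus Het difference was -1.49 ± 0.40 (limma adjusted p = 0.080) and its OE minus WT difference was -1.22 ± 0.43 (adjusted p = 0.359). Summed over Mcm2 to Mcm7, the level was 9.89 ± 2.80 FPKM in OE APAP livers (SD, n = 2), 22.3 ± 3.82 FPKM in Het APAP livers (n = 3) and 21.0 ± 6.21 FPKM in WT APAP livers (n = 3). It was 9.31 ± 2.94 FPKM in OE saline livers (n = 2), 12.4 ± 4.86 FPKM in Het saline livers (n = 2) and 13.2 ± 0.66 FPKM in WT saline livers (n = 3). Only WT APAP 1 (14.3 FPKM) of the WT and Het APAP livers lay within the range of the saline livers, whose highest sum was 15.9 FPKM in Het saline 1.

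**Figure D5:**
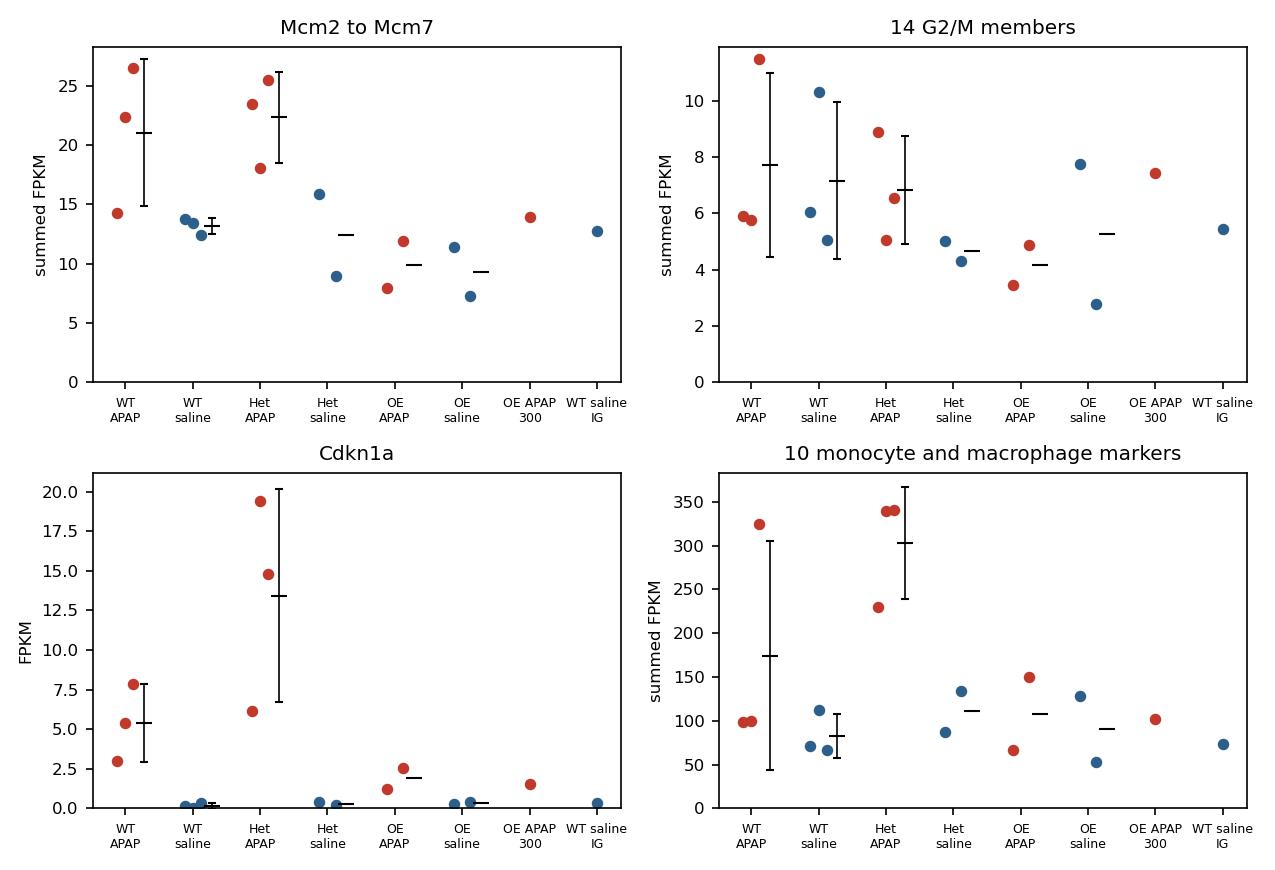
Summed FPKM of Mcm2 to Mcm7, of the 14 G2/M genes and of 10 monocyte and macrophage markers, and FPKM of Cdkn1a (y axes, from 0), by label and treatment (x axis). Points are livers, APAP in red and saline in blue, with group means as dashes and the SD as bars in groups of 3. Helicase sums reached 18.1 to 26.5 FPKM in WT APAP 2 and 3 and the Het APAP livers, while the G2/M sums of APAP and saline livers overlapped in WT and OE and lay next to each other in Het (5.05 FPKM in Het APAP 2 and 5.03 FPKM in Het saline 1).

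Het and WT APAP livers were not separated by the test in any of the 36 genes (0 passed in limma, against 0.168% of all genes higher and 0.0217% lower). At an unadjusted p under 0.05, 1 was higher and 4 were lower in Het, against 9.48% and 5.18% of all genes. The Mcm2 values of these livers, 2.18 to 2.62 FPKM in Het and 1.88 to 3.16 FPKM in WT, overlapped. Under saline 0 genes passed in Het minus WT (0.0124% of all genes higher and 0.00932% lower). At an unadjusted p 1 was higher and 8 were lower, against 2.88% and 3.01% of all genes. The higher one was E2f8, at 0.72 ± 0.19 (adjusted p = 0.528), and the lower ones included Lig1 at -0.74 ± 0.16 (adjusted p = 0.440) and Rrm2, a ribonucleotide reductase subunit, at -1.09 ± 0.26 (adjusted p = 0.478). Under saline 0 passed in OE minus WT (0.00311% of all genes higher and 0.0155% lower). In that comparison 3 were lower at an unadjusted p, against 1.82% of all genes. The APAP responses of the labels did not differ past the threshold in any gene, with 0 called in Het minus WT (0.00932% of all genes higher and as many lower) and in OE minus WT (0% higher and 0.00311% lower). At an unadjusted p, 3 members were higher and 2 lower in the first, against 3.91% and 2.17% of all genes. In the second 1 was higher and 5 were lower, against 2.13% and 2.61%. Mcm2 differed by -0.80 ± 0.30 between the OE and WT responses (95% interval -1.47 to -0.13, adjusted p = 0.987).

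Other genes of the same processes were called in both directions in the averaged response, where 2.64% of all genes were higher and 3.14% lower. Of 41 further replication genes 3 were higher, Pold3, an accessory subunit of polymerase delta (0.60 ± 0.12, limma adjusted p = 0.022), Prim2, the other primase subunit (0.44 ± 0.10, adjusted p = 0.026), and Dbf4, the activator of Cdc7 kinase (0.66 ± 0.14, adjusted p = 0.027). Tk1, a thymidine kinase, was lower (-0.95 ± 0.21, adjusted p = 0.027) and overlaps Afmid on the opposite strand. Of 47 further mitosis genes 0 were higher and 2 were lower, the kinetochore subunit Spc24 (-1.21 ± 0.14, adjusted p = 0.0029) and securin, Pttg1 (-0.51 ± 0.08, adjusted p = 0.0070). Next by p were Gtse1 (0.30, adjusted p = 0.055) and Incenp (0.20, adjusted p = 0.105). Of 14 further cyclins, kinases, E2F factors and their partners 0 passed, with Cdc25a (0.41 ± 0.11, adjusted p = 0.061) and Cdk2 (0.43 ± 0.13, adjusted p = 0.093) having the smallest p, before Cks1b (0.56, adjusted p = 0.131) and Ccnd2 (0.29, adjusted p = 0.185). Median changes were 0.15, 0.06 and 0.24 over these lists, against 0.02 over all genes.

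Among 23 listed brakes of the cell cycle 3 were higher and 1 was lower in the averaged response, against 2.64% and 3.14% of all genes. Cdkn1a, the inhibitor p21, rose by 2.11 ± 0.27 (limma adjusted p = 0.0043), Btg2 by 1.56 ± 0.33 (adjusted p = 0.024) and Pkmyt1, which holds Cdk1 inactive, by 0.51 ± 0.07 (adjusted p = 0.0058). Wee1, another kinase that holds Cdk1 inactive, fell (-1.39 ± 0.29, adjusted p = 0.024). Cdkn1a had 2.97, 5.36 and 7.85 FPKM in WT APAP livers, against 0.130, 0 and 0.354 FPKM in WT saline livers. It had 6.12, 19.4 and 14.8 FPKM in Het APAP livers, against 0.386 and 0.202 FPKM in Het saline livers, and 1.24 and 2.56 FPKM in OE APAP livers, against 0.243 and 0.415 FPKM in OE saline livers. Every APAP library lay above every saline library. After APAP Cdkn1a was lower in OE than in Het livers (-2.16 ± 0.41, adjusted p = 0.031).

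Among monocyte and macrophage markers 6 of 10 were higher in the Het response in limma, as were 3 of 7 neutrophil markers, against 2.88% of all genes. In the WT and OE responses 0 of either list passed, against 0.233% and 0% of all genes higher. The 10 monocyte and macrophage markers summed to 98.6 to 325 FPKM in WT APAP livers, against 66.0 to 112 FPKM in WT saline livers, to 230 to 340 FPKM in Het APAP livers, against 87.1 to 134 FPKM in Het saline livers, and to 66.8 and 149 FPKM in OE APAP livers, against 53.1 and 128 FPKM in OE saline livers. In the averaged response 5 of the 10 were higher in limma, as were 3 of 7 neutrophil markers. Of all genes 2.64% were higher and 3.14% lower. The neutrophil markers summed to 460 FPKM in Het APAP 2 and to 9.48 FPKM at most in saline livers. Lymphocyte markers summed to 0.472 to 2.14 FPKM and 0 of 6 passed, and 0 of 5 Kupffer and 0 of 6 erythroid markers passed. Of 5 endothelial markers 1 was lower, of 4 stellate markers 1 was higher and 1 lower, and of 4 cholangiocyte markers 1 was higher. Of the hepatocyte markers tested, 3 of 6 were lower. In WT APAP 1, 2 and 3 the monocyte and macrophage markers summed to 98.6, 99.7 and 325 FPKM, beside helicase sums of 14.3, 22.4 and 26.5 FPKM. The order was not the same in Het APAP 1, 2 and 3, with marker sums of 230, 339 and 340 FPKM beside helicase sums of 23.5, 18.1 and 25.5 FPKM. OE APAP 1 and 2 had marker sums of 66.8 and 149 FPKM beside helicase sums of 7.92 and 11.9 FPKM. The part of these cells in the results was not tested.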

How the data were processed

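Liver RNA was sequenced as a stranded total RNA library, 1 per mouse, for 17 mice. The deposited table gives 1 FPKM value per gene and mouse, a unit read from the values and the tools named. Per the submitters' processing notes reads were handled with TopHat2 2.0.9, bcl2fastq 2.17.1.14, Cuffdiff and Cufflinks 2.2.1 and the build was GRCm38; the gene annotation is not given in the sources used here. FPKM keeps no depth, so counting error is unknown, and summed FPKM per library ran from 466883 to 916006.

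Values were tested as log2(FPKM + 1) with limma 3.58.1 in R 4.3.3, with 8 groups and a perfusion term, trended and robust variance, 8 residual degrees of freedom, 2-sided p-values and Benjamini-Hochberg adjustment over 32197 genes. These were the genes above 0 in at least 1 library, less 66 taken as failed estimates, which were at 0 in every library of a label and treatment and had a median of at least 10 FPKM in another group. That rule was chosen after the values were seen and removed no member. Calls needed an adjusted p under 0.05. Members and gene lists were chosen with earlier results of these data known. Named with values were members that passed a test, the 3 of each class with the smallest p and the highest mean, and up to 4 genes of each further list by p; other members given values, such as Mcm6, Ccnd1, Rrm2 and Foxm1, were chosen after their values were seen. Positions came from GENCODE M21 (GRCm38), and promoters from RefSeq. Alternatives changed the pseudocount, filter, scaling, weights, lane or perfusion terms and the libraries used, and each library was left out in turn.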

Additional observations from a re-analysis of the deposited data

Results flagged for a closer look

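Single libraries outside the comparisons held the highest value of 4 genes, above every library of the compared groups. The OE liver given APAP at 300 mg/kg had 11.8 FPKM of Tyms, against at most 8.78 FPKM in the compared groups (WT saline 1). It had 4.05 FPKM of Cdk1, against at most 2.14 FPKM (WT APAP 3), and 3.82 FPKM of Gins1, a subunit of the helicase activator, against at most 3.33 FPKM (Het saline 2). This library also had the largest summed FPKM of the study (916006). The WT liver given saline labelled IG had 4.02 FPKM of Rrm2, against at most 3.08 FPKM (WT saline 2). Each is 1 liver with no replicate, and the differences were not tested.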

How the results depend on the processing

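Direction was scored only for members that passed a test and for the 3 of each class with the smallest p in the averaged response. None of these reversed under the alternatives run, but not all of them passed in every alternative. Counts and class medians were scored only for size, so a median that changed sign would not have been marked as reversed. Of counts and medians over members outside the fits that leave out a library, 178 counts and 176 medians stayed near their value, and 32 counts and 34 medians moved. In the averaged response the number of higher members was 5 with a pseudocount of 0.1, 8 with a mean of at least 0.1 FPKM required, 7 with at least 1 FPKM, 1 after quantile normalisation, 6 with the labels of single libraries pooled and 0 without OE saline 2 and OE APAP 1. In WT livers it was 1 with either filter. In Het livers it was 10 and 7 with these filters, 5 with pooled labels, and 1 after quantile normalisation, with array weights, in perfused livers alone and without that OE pair; the number lower was 0 with lane in place of perfusion, array weights, perfused livers alone or without that pair. The number lower in OE than in Het livers after APAP was 4 with at least 0.1 FPKM or pooled labels, 5 with at least 1 FPKM, and 0 with lane, quantile normalisation, array weights, either perfusion class alone or without that pair. With lane, 1 member, Pola1, was lower in Het minus WT and in OE minus WT after APAP. Under saline, array weights gave 1 higher and 5 lower in Het minus WT. Leaving out each library in turn gave 0 to 6 higher in the averaged response, 0 to 1 in WT, and 0 to 5 higher and 0 to 1 lower in Het. It gave 0 to 1 lower in OE, 0 to 1 lower in OE minus WT after APAP and 0 to 3 lower in OE minus Het after APAP. The filters changed how many genes were tested, and more of all genes passed with them. They used means over all libraries, so a gene could enter through the groups where it was high. In the averaged response 2.64% were higher without a filter, 7.75% with 0.1 FPKM and 9.67% with 1 FPKM. In Het livers these shares were 2.88%, 7.22% and 8.94%. Shares under the other settings are not given here, so these counts alone do not show changes particular to the members. The cause of the changes under the other settings was not tested. No paired analysis was possible because replicate numbers only follow the order of deposit and pair no samples; lane, which some APAP and saline livers share, entered as a term in the fits named above. Depth is unknown, and most G2/M members lay under 1 FPKM, where the log2(FPKM + 1) scale compresses changes.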
